A study of Mus musculus with 6 samples.

Results

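The Egr genes (Egr1, Egr2, Egr3 and Egr4) encode zinc finger transcription factors, and Nab1 and Nab2 encode corepressors of Egr proteins. These 6 genes were taken by gene symbol from the 14824 genes listed in the deposited table of mouse primary somatosensory (S1) cortex. All 6 were listed and all 6 passed the filter on low counts, which kept 13747 genes. Bulk RNA-seq had been made from 3 non-stimulated (NS) and 3 whisker-stimulated (WS) samples. All samples came from wild-type (WT) mice of the strain labelled C57B6 at postnatal day 21. In the WS group the whiskers of the right side had been brushed once a day, and tissue was collected 90 min after the last stimulation. The NS samples are labelled as untreated, and the study's stimulation scheme takes the cortex of the other side as its control. The labels do not name the animal of each sample, so p-values measure the spread between these samples. RNA comes from a piece of tissue with neurons, glia and vessels, in which fewer cells of a type and less RNA per cell cannot be told apart.

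Immediate early genes are genes that neurons transcribe within minutes of activity, from factors already present in the cell. Calcium entry and ERK kinase signalling act on serum response factor (SRF) with its ternary complex factors, which bind a motif called the CArG box, and on CREB, which binds TGACGTCA or its shorter form TGACG. Egr proteins then bind the GC-rich element GCGTGGGCG in other genes. Nab1 and Nab2 attach to an inhibitory domain of Egr1, Egr2 and Egr3 and repress their output, in part through the chromatin remodelling complex NuRD. In the S1 cortex, which receives whisker input through the thalamus, Egr1 is in common use as a marker of recent neuronal activity.

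The promoter windows show which of these motifs lie near annotated start sites. Windows of RefSeq (assembly GRCm38.p6) hold 250 bases before and 50 after a start site, and 4 of the 6 genes had one: Egr2 (5 windows), Egr4, Nab1 and Nab2. Egr1 and Egr3 had none. The printed stretches of Egr2 and Nab1 and the Nab2 window lie inside the GENCODE bounds of their genes, given below. In these genes, positions before a start refer to the RefSeq start and not to the outer end of the gene. The stretch before the start of Egr4, the gene with the largest difference below, is shown first, at chr6:85513590-85513839 on the minus strand. Its capitals mark the reverse complement of TGACG, at 177 and 109 bases before the start. The stretch of Egr2 (chr10:67537793-67537822, plus strand) has a CArG box and the reverse complement of TGACG in capitals. The pair of stretches of Nab1 (chr1:52500571-52500599 and chr1:52500539-52500567, minus strand) have GCGTGGGCG, once as its reverse complement, in capitals.
Egr4: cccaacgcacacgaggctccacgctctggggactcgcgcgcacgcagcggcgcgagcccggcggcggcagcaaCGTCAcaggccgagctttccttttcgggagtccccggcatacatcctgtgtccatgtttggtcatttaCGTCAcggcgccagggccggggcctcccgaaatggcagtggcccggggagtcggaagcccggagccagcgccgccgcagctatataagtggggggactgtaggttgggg
Egr2: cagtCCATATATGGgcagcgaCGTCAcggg
Nab1, first element: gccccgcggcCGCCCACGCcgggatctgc
Nab1, second element: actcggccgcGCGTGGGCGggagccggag

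Both strands of each window were searched for the CArG box, TGACGTCA, TGACG, GCGTGGGCG and GCGGGGGCG. TGACG is contained in TGACGTCA, and the others do not contain each other. Of 32851 windows of the same length, 1.63% held a CArG box, 1.79% TGACGTCA, 20.8% TGACG, 0.612% GCGTGGGCG and 2.91% GCGGGGGCG. The Egr4 window held TGACG at 2 places and none of the other motifs. A CArG box lay in 4 of the 5 overlapping or neighbouring Egr2 windows, written CCATATATGG in 3 of them and CCTTTTTTGG in another. The 3 windows with CCATATATGG overlap and hold the same copy of it. They also hold the same TGACG sites, at 2 places in each window, as the Egr4 window did with its own. The Nab1 window held GCGTGGGCG at 2 places, 141 and 109 bases before the start, GCGGGGGCG at 38 bases and TGACG at 123 bases before it. The Nab2 window held none of them. These matches describe letters in a window, and binding was not measured.

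The 6 genes were expressed at very different levels. Levels between genes are given as CPM (counts scaled to a fixed library total after TMM normalization) per kilobase of exon. Egr1 was the highest, at 101.3 ± 24.1 (SD, n = 3) in NS and 101.0 ± 12.7 in WS, and Egr3 followed with 65.8 ± 7.74 and 59.5 ± 7.37 CPM per kilobase. Egr4 stood at 19.4 ± 5.97 in NS and 43.6 ± 7.18 in WS. Nab2 had 14.0 ± 1.45 in NS and 13.6 ± 0.872 in WS, and Nab1 had 6.77 ± 0.203 and 6.70 ± 0.830 CPM per kilobase. Egr2 was the lowest, at 3.65 ± 2.03 and 3.33 ± 1.25. Neighbours in this order had separate ranges over the 3 libraries in both groups, except Egr4 and Nab2, which overlapped in NS because the Egr4 level in NS replicate 3 (14.5 CPM per kilobase) was below that of Nab2 (15.4). The levels per kilobase in each library show Egr4 moving from beside Nab2 in NS towards Egr3 in WS.

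**Figure D1:**
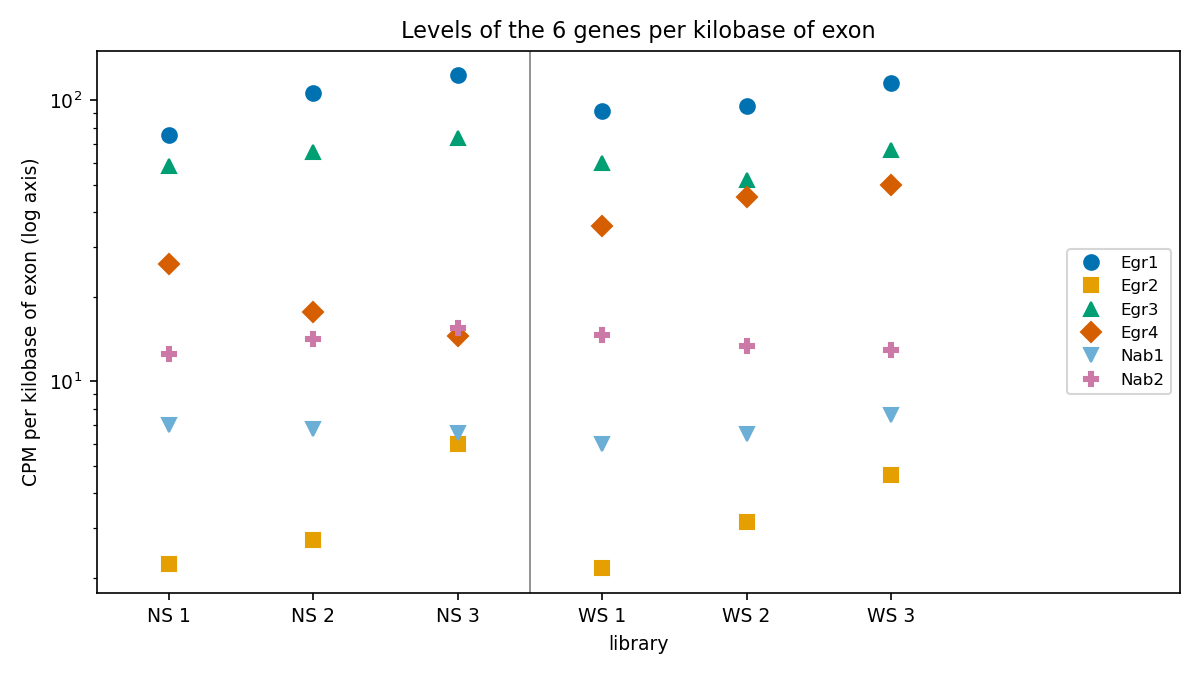
Level of the 6 genes in CPM per kilobase of exon (log axis) in each of the 3 NS and 3 WS libraries, with 1 point per gene and library. Egr1 is the highest and Egr2 the lowest gene in every library, and Egr4 lies between 14.5 and 26.1 in NS and between 35.7 and 49.8 in WS.

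Egr4, an early growth response factor that is induced by neuronal activity and takes part in neuronal maturation, was the only one of the 6 whose NS and WS values did not overlap. Its gene is at chr6:85511121-85513589 on the minus strand (GENCODE M21, GRCm38) and overlaps no other annotated gene. It had 56.0, 37.8 and 31.2 CPM in NS replicates 1, 2 and 3 (888, 605 and 503 counts), and 76.7, 96.9 and 107 CPM in WS replicates 1, 2 and 3 (1295, 1567 and 1694 counts). The highest NS library was replicate 1 and the lowest WS library was also replicate 1, so the groups came nearest to each other in that number. The mean was 41.7 ± 12.8 CPM in NS and 93.5 ± 15.4 CPM in WS (SD, n = 3 each), a 2.25-fold higher level in WS. On the log2 scale the difference was 1.17 with an SE of 0.18.

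In edgeR's quasi-likelihood test, Egr4 had a p of 4.4e-05 and, after Benjamini-Hochberg adjustment across the 13747 tested genes, an adjusted p of 0.101. It therefore did not pass the call, which asks for an adjusted p below 0.05 together with a log2 fold change beyond 1 in either direction. Of all genes, 4 passed this call as higher in WS (0.0291%) and 0 as lower (0.0%), while 119 (0.866%) and 45 (0.327%) had an unadjusted p under 0.05. None of the 6 Egr and Nab genes passed it, and Egr4 was 1 of 6 with an unadjusted p under 0.05. In a fit that adds the replicate number as a blocking factor, Egr4 passed: the log2 fold change was 1.19 (SE 0.15) with an adjusted p of 3.0e-05 in the same edgeR test, where 6 genes (0.0436%) were called higher. Without the block Egr4 had rank 6 by p and rank 8 by log2 fold change, and a log2 fold change above 1 was seen in 0.116% of genes. In the same-numbered pairs the fold was 1.37, 2.57 and 3.42, so WS was higher in 3 of 3, as it was in 9.82% of all genes, and WS was lower in 3 of 3 pairs in 8.57%. All 3 WS libraries were above all 3 NS libraries in 3.11% of genes and below them in 3.16%. The exact permutation test over libraries gave a two-sided p of 0.1 for Egr4, the smallest that 3 against 3 can give.

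Egr4 passed the call in 2 of the 6 fits that leave out 1 library. Without NS replicate 1, the library with the highest Egr4 of its group, the log2 fold change was 1.44 and the edgeR adjusted p 0.0173. Without WS replicate 1 the values were 1.29 and 0.0284. Without NS replicate 3 they were 0.997, just under the limit of 1, and 0.504. Without NS replicate 2 they were 1.10 and 1.0. In neither of these was Egr4 called, as with all 6 libraries. The sums of the endothelial markers and of the microglial markers also did not overlap between the groups, and neither sum was tested. The 7 endothelial marker genes summed to 142 to 148 CPM in NS and 161 to 195 CPM in WS, with 1 of 7 at an unadjusted p under 0.05 and none at 0 counts. That gene was Pecam1, named after its values were seen, with a mean of 17.6 CPM in NS and 32.2 CPM in WS. The fitted log2 fold change was above 0 in 7 of 7 endothelial, 10 of 10 astrocyte, 7 of 7 oligodendrocyte, 8 of 8 striatal, 6 of 7 microglial, 4 of 7 cortical layer, 3 of 7 neuronal and 2 of 5 choroid plexus markers, and in 7289 of all 13747 genes. The part of RNA from these cells in the Egr4 difference was not tested.

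Egr1, known as Zif268 in studies of plasticity, did not differ between the groups beyond the spread of the libraries. It had 337, 475 and 550.1 CPM in NS replicates 1, 2 and 3, and 412, 428 and 518 CPM in WS replicates 1, 2 and 3. The WS libraries lay inside the NS range. The mean was 454 ± 108 CPM in NS and 453 ± 57.0 CPM in WS (SD, n = 3 each), with a log2 fold change of -0.00 (SE 0.15, adjusted p = 0.99984 by edgeR's quasi-likelihood test). WS was higher in 1 of 3 same-numbered pairs, with folds of 1.22, 0.902 and 0.941. Its gene is at chr18:34859823-34864984 on the plus strand.

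Egr3, which acts with Egr1 on activity-dependent targets such as Arc, had a lower mean in WS than in NS, by less than the spread, and was higher in WS in 1 of 3 same-numbered pairs. It had 257, 288 and 325 CPM in NS replicates 1, 2 and 3, and 263, 229 and 294 CPM in WS replicates 1, 2 and 3. WS replicate 2 was the lowest of all 6 libraries and NS replicate 3 the highest, and the groups overlapped. The means were 289.8 ± 34.1 CPM in NS and 262 ± 32.5 CPM in WS (SD, n = 3 each), and the log2 fold change was -0.14 (SE 0.11, adjusted p = 0.99984 by edgeR's quasi-likelihood test). Egr3 lies at chr14:70077203-70082614 on the plus strand.

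Egr2, also named Krox20 and best known for its role in hindbrain patterning and in myelination by Schwann cells, varied most within a group. Its CPM were 7.63, 9.24 and 20.3 in NS replicates 1, 2 and 3 (121, 148 and 327 counts), and 7.35, 10.8 and 15.8 in WS replicates 1, 2 and 3 (124, 174 and 250 counts). Replicate 3 was the highest library of both groups, 2.66 times the lowest in NS and 2.15 times the lowest in WS. The means were 12.4 ± 6.91 CPM in NS and 11.3 ± 4.25 CPM in WS (SD, n = 3 each), with a log2 fold change of -0.14 (SE 0.34, adjusted p = 0.99984 by edgeR's quasi-likelihood test). Without NS replicate 3 the log2 fold change was 0.42 and without WS replicate 1 it was 0.10, neither of them called. Without the block, a difference in Egr2 of the size of this SE of 0.34 would not be detectable. With the replicate block the log2 fold change was -0.09 (SE 0.14), and Egr2 was not called. The SD of log2 CPM within groups was 0.66 for Egr2, 0.35 for Egr4, 0.28 for Egr1 and 0.18 for Egr3, against a median of 0.14 over all tested genes. The gene is at chr10:67535475-67542188 on the plus strand.

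**Figure D2:**
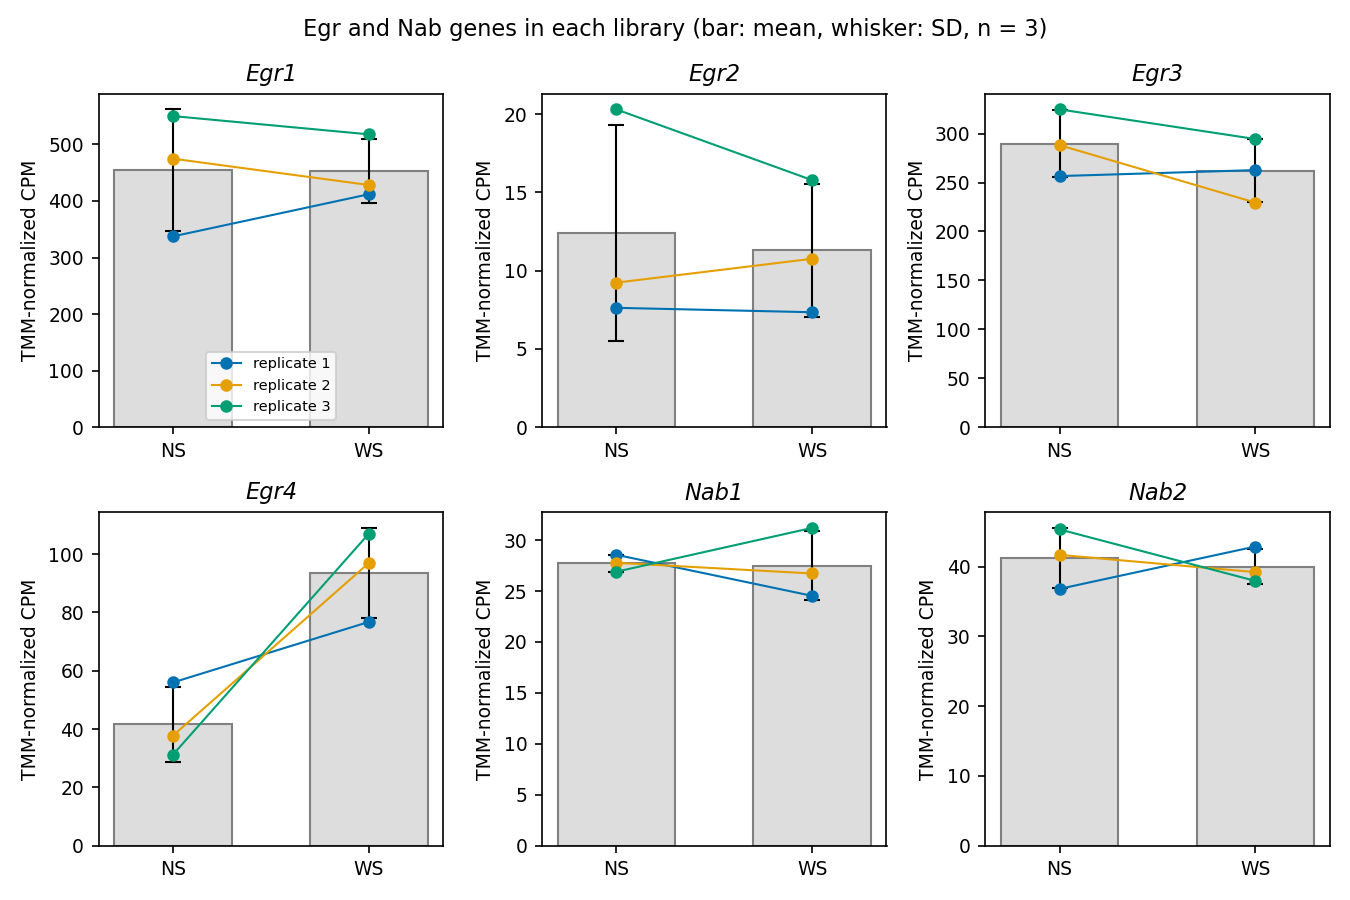
TMM-normalized CPM of each gene in NS and WS, with 1 point per library, lines joining libraries of the same replicate number, grey bars for the mean and whiskers for the SD (n = 3). Egr4 is the gene whose WS libraries (76.7 to 107 CPM) all lie above its NS libraries (31.2 to 56.0 CPM), and in the other 5 genes the groups overlap.

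The corepressors differed less among libraries than the Egr genes, and neither differed between the groups beyond its spread. Nab1, at chr1:52457294-52500679 on the minus strand, had 28.6, 27.8 and 26.9 CPM in NS replicates 1, 2 and 3, and 24.5, 26.7 and 31.2 CPM in WS replicates 1, 2 and 3. The NS values lay within those of WS. Its log2 fold change was -0.01 (SE 0.11, adjusted p = 0.99984 by edgeR's quasi-likelihood test), from 27.7 ± 0.832 CPM in NS and 27.5 ± 3.40 CPM in WS (SD, n = 3 each).

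Nab2, which is itself transcribed in response to Egr proteins in several cell types, had 36.8, 41.7 and 45.3 CPM in NS replicates 1, 2 and 3, and 42.9, 39.2 and 38.0 CPM in WS replicates 1, 2 and 3. All WS values lay inside the NS range, and the libraries of number 3 were the highest in NS and the lowest in WS. Its log2 fold change was -0.04 (SE 0.10, adjusted p = 0.99984 by the same edgeR test), from 41.3 ± 4.28 CPM in NS and 40.0 ± 2.56 CPM in WS (SD, n = 3 each). Nab2 is at chr10:127660918-127668568 on the minus strand and shares exon bases with 3 genes of the opposite strand, 40 with Stat6, 1050 with the antisense gene Gm16229 and 151 with Nemp1. Whether counting used the strand is not given in the sources used here, so reads of Nab2 and these genes may be mixed. The within-group SD of log2 CPM was 0.13 for Nab1 and 0.12 for Nab2.

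**Figure D3:**
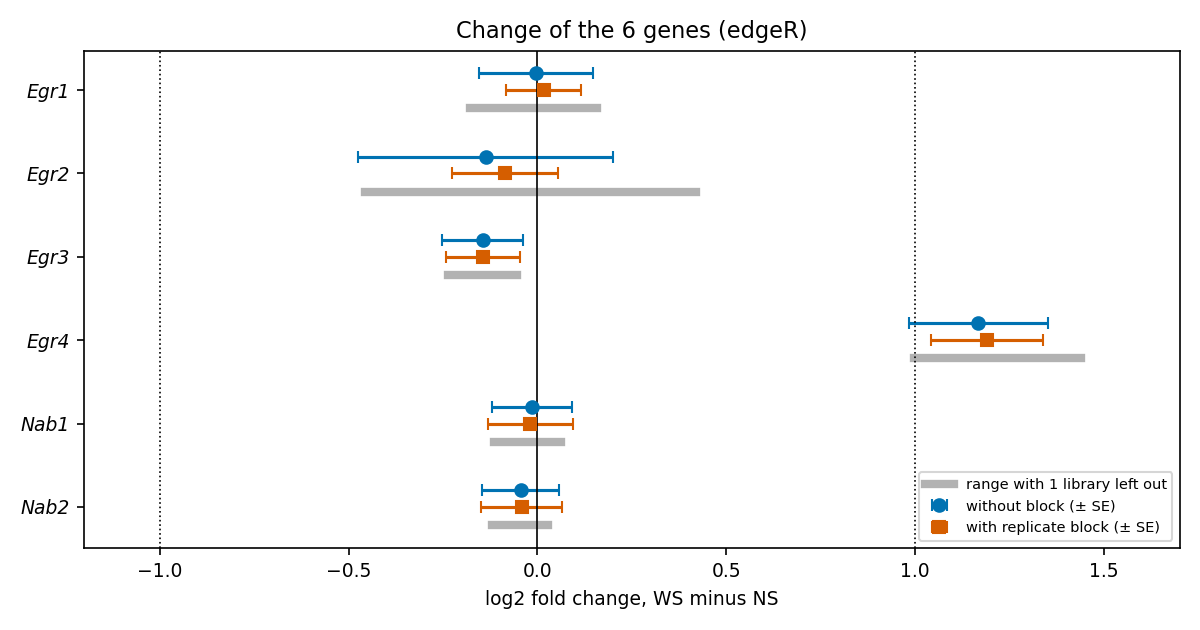
Log2 fold change of each gene (WS minus NS, edgeR) without a block (circles) and with the replicate block (squares), each with its SE, and the range with 1 library left out (grey bars). Dotted lines mark a log2 fold change of 1 in either direction, and Egr4 lies at 1.17 without the block and 1.19 with it while the other 5 genes lie between -0.15 and 0.02.

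The exact permutation test over libraries, two-sided, gave p = 1.0 for Egr1, 0.9 for Egr2, 0.5 for Egr3, 0.8 for Nab1 and 0.8 for Nab2. WS was higher in 1 of 3 same-numbered pairs in each of these 5 genes. Whether Egr4 responded differently from its relatives was tested on the log2 difference of CPM between 2 genes within each library, over 4 pairs of genes. Egr4 was known to have the larger change when these pairs were chosen. The difference Egr4 minus Egr1 was 1.18 higher in WS (SE 0.46) and that of Egr4 minus Egr3 was 1.34 higher (SE 0.38). For both, the NS and WS libraries did not overlap, and the exact permutation test over libraries gave p = 0.1, or 0.2 adjusted over the 4 pairs. The difference Egr4 minus Egr2 was 1.26 higher in WS (SE 0.68) with overlapping groups, and its exact permutation p was 0.2, or 0.267 adjusted. Without NS replicate 3, the library with the highest Egr2, it was 0.65 higher. Nab2 minus Nab1 was -0.02 (SE 0.19) from NS to WS, with an exact permutation p of 0.9 before and after adjustment. These tests do not use the replicate numbers. In same-numbered pairs the difference was higher in WS in 3 of 3 pairs for Egr4 minus Egr1, Egr4 minus Egr2 and Egr4 minus Egr3, and in 1 of 3 for Nab2 minus Nab1. With 3 libraries per group none of these could have reached 0.05.

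The make-up of the family can be read from levels per kilobase. Egr4 made up 16.1%, 9.18% and 6.71% of the summed Egr level in NS replicates 1, 2 and 3, and 18.9%, 23.04% and 21.0% in WS replicates 1, 2 and 3. The share was higher in every WS library than in every NS library, with means of 10.7 ± 4.88% and 21.0 ± 2.09% (SD, n = 3 each). The share of Egr1 was 52.8 ± 5.47% in NS and 48.7 ± 0.147% in WS, that of Egr3 34.7 ± 1.12% and 28.8 ± 2.49%, and that of Egr2 1.85 ± 0.781% and 1.57 ± 0.412%. In WS, Egr1 and Egr3 still accounted for most of the summed level. The ratio of Egr3 to Egr4 was 3.67 ± 1.42 in NS and 1.39 ± 0.261 in WS. The summed level of the Egr genes was 190.1 ± 27.6 CPM per kilobase in NS and 207 ± 25.7 in WS, and that of the Nab genes 20.8 ± 1.25 and 20.3 ± 0.399. The ratio of summed Egr to summed Nab levels was 9.11 ± 0.784 in NS and 10.2 ± 1.20 in WS. It was 8.30, 9.14 and 9.87 in NS replicates 1, 2 and 3 and 9.21, 9.87 and 11.5 in WS replicates 1, 2 and 3, so the groups overlapped, while WS was higher in 3 of 3 same-numbered pairs. The summed Egr level was 162, 192 and 217 CPM per kilobase in NS and 189, 196 and 237 in WS, in the same order of replicates, and was also higher in WS in 3 of 3 pairs. The sum and the ratio both include Egr4. That gene was higher in WS in 3 of 3 pairs, while Egr1, Egr2 and Egr3 were each higher in 1 of 3. Neither sum nor ratio was tested.

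Egr1 and Egr2 shared an order of libraries that did not follow the groups. Both were highest in replicate 3 and lowest in replicate 1, in NS and in WS alike. The same order held for 4.33% of all tested genes and for 5 of 11 other immediate early genes, namely Junb, Nr4a1, Ier2, Dusp1 and Btg2, and it was looked for after the values were seen. Nr4a1, a nuclear receptor induced by activity, had 54.3, 116 and 214 CPM in NS replicates 1, 2 and 3 and 65.9, 108 and 194 CPM in WS replicates 1, 2 and 3. Egr4 did not have this order, since replicate 3 was its lowest NS library and its highest WS library. Fos, a subunit of the AP-1 factor, had its highest and lowest libraries at the same numbers as Egr4 in both groups. In the fit with the replicate block, the SE of the log2 fold change was 2.42 times smaller for Egr2, 1.52 times for Egr1, 1.25 times for Egr4 and 1.09 times for Egr3, and slightly larger for Nab1 and Nab2. The summed level of 7 oligodendrocyte markers was also lowest in replicate 1 of both groups (8277 to 11919 CPM in NS, 9856 to 13195 CPM in WS, none at 0 counts, 0 of 7 at an unadjusted p under 0.05). The summed level of 5 choroid plexus markers was lowest in replicate 1 of both groups as well, at 33.3, 48.9 and 79.2 CPM in NS replicates 1, 2 and 3 and 10.2, 93.5 and 51.8 CPM in WS replicates 1, 2 and 3. In NS it had the order of Egr1 and Egr2, and in WS its highest library was replicate 2 (none at 0 counts, 0 of 5 at an unadjusted p under 0.05). The part of either in the order of Egr1 and Egr2 was not tested.

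**Figure D4:**
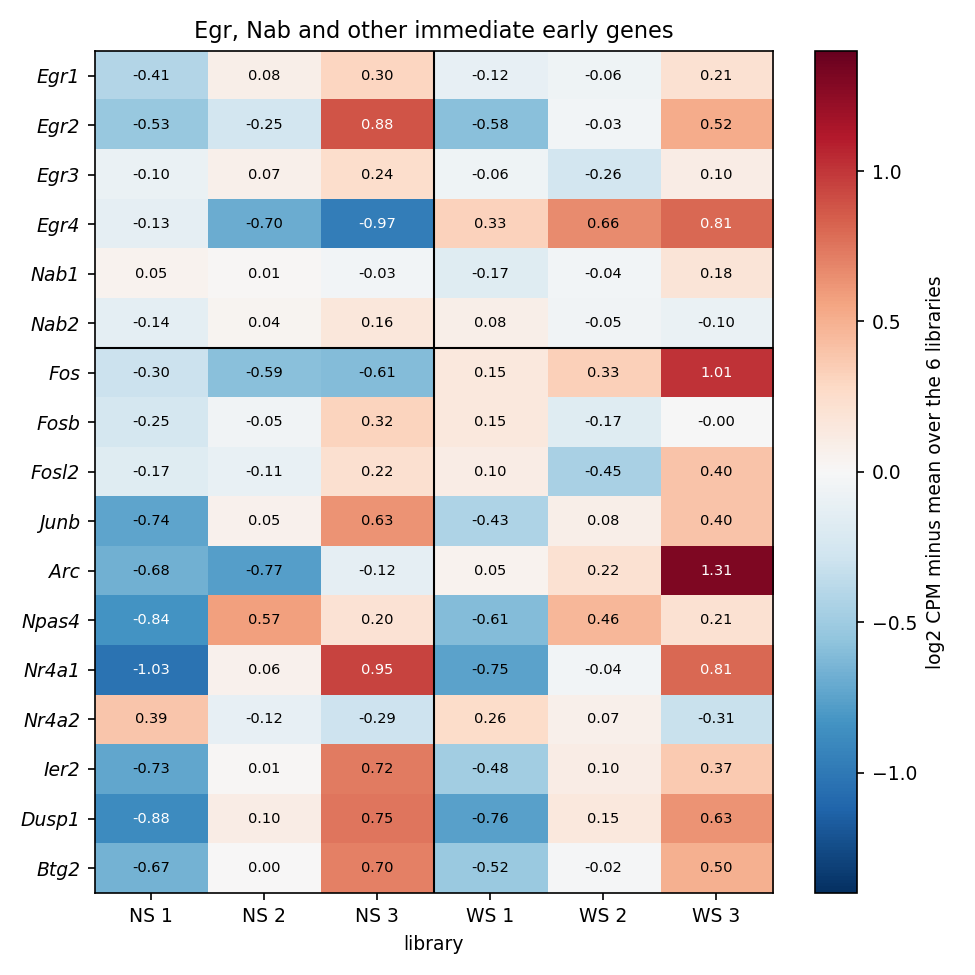
Log2 CPM minus the mean over the 6 libraries for the 6 genes (above the line) and 11 other immediate early genes (below it), in 3 NS and 3 WS libraries, with the value printed in each cell and shown by colour. Egr2 is at 0.88 in NS replicate 3 and 0.52 in WS replicate 3, whereas Egr4 is at -0.97 and 0.81 in the same libraries.

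The genes whose log2 CPM ran most like each Egr gene were found by Pearson r over the 6 libraries among 1742 genes whose mean was at least 100 counts and whose log2 CPM ranged over at least 0.5. The 6 points share their libraries and normalization, and r is given as a description. For Egr1 they were Dusp5 (r = 0.994), a nuclear phosphatase of ERK, Entpd7 (0.993) and Klf10 (0.976), a GC-box binding factor. Dusp5 had 3.78, 6.43 and 8.70 CPM in NS replicates 1, 2 and 3 and 4.92, 5.51 and 7.96 CPM in WS replicates 1, 2 and 3, the same order of libraries as Egr1. For Egr2 they were Lyrm7 (0.982), Btg2 (0.966) and Csrnp1 (0.955). For Egr3 they were Pcdha4 (0.967), a clustered protocadherin that shares exons with its neighbours so that its count is uncertain, Etnk2 (0.963) and Actl6a (0.922).

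For Egr4 the nearest were Zfp423 (r = 0.960), Fos (0.933) and Slc16a7 (0.926). Slc16a7 encodes the lactate transporter MCT2, the gene at the centre of the study, and had 55.2, 46.1 and 54.4 CPM in NS replicates 1, 2 and 3 and 97.5, 149 and 182 CPM in WS replicates 1, 2 and 3. Its WS libraries were all above its NS libraries, as for Egr4. In WS, Slc16a7 and Egr4 were both lowest in replicate 1 and highest in replicate 3. In NS both were highest in replicate 1, but Egr4 was lowest in replicate 3 and Slc16a7 in replicate 2. Their r over the 6 libraries includes the difference between the groups, a log2 fold change of 1.17 for Egr4 and 1.46 for Slc16a7. Zfp423, a zinc finger factor, had a log2 fold change of 0.32.

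Among 11 other immediate early genes, 0 passed the call, which 0.0291% of all genes passed as higher and 0.0% as lower. Fos and Arc had an unadjusted p under 0.05, and in both all WS libraries were above all NS libraries. Fos had 18.4, 15.0 and 14.8 CPM in NS replicates 1, 2 and 3 and 25.1, 28.4 and 45.5 CPM in WS replicates 1, 2 and 3 (log2 fold change 1.03, SE 0.20, edgeR adjusted p = 0.416). Arc, a postsynaptic protein gene, had 124, 116 and 182 CPM in NS and 203.9, 229 and 490.4 CPM in WS, in the same order of replicates (log2 fold change 1.13, SE 0.28, edgeR adjusted p = 0.99984). Both were at their highest in WS replicate 3, where Egr4 was also highest. With the replicate block Arc passed (log2 fold change 1.05, adjusted p = 2.2e-06 by edgeR), and Fos had an adjusted p of 5.9e-04 with a log2 fold change of 1.00, just under the limit. The median log2 fold change of the 11 was -0.02, beside 0.01 over all genes, and the 9 genes other than Fos and Arc, set apart after their values were seen, lay between -0.09 and 0.07. Leaving out NS replicate 3 or WS replicate 1 put the median of the 11 at 0.34 and 0.16, and leaving out NS replicate 1 or WS replicate 3 put it at -0.31 and -0.14.

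In the list of signalling to SRF and the ternary complex factors, 14 of 15 genes were tested and 0 passed the call in either direction. The median log2 fold change was -0.05 and the range -0.19 to 0.17. The ends of the range were Rps6ka5, the kinase MSK1 (-0.19, SE 0.12), and Elk4, a ternary complex factor (0.17, SE 0.14). Of 10 genes described as Egr targets, 0 passed the call without the block and Arc passed with it, since Arc stands in both lists. Their median log2 fold change was 0.08, or 0.02 without WS replicate 1 and 0.12 without WS replicate 3, and after Arc the largest value was 0.22 (SE 0.15) for Tgfb1, a growth factor gene.

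In the NuRD list, 0 of 13 subunits passed the call, and the median log2 fold change was -0.01, or 0.035 without WS replicate 3. Gatad2a had the largest value, 0.22 (SE 0.09), with 33.0, 33.8 and 35.5 CPM in NS replicates 1, 2 and 3 and 42.0, 37.2 and 40.0 CPM in WS replicates 1, 2 and 3. These groups did not overlap, and its edgeR p was 0.0322 before and 0.99984 after adjustment. In Chd4 (0.05, SE 0.07) all WS libraries were also above all NS libraries, as in 3.11% of all tested genes. The next largest value after Gatad2a was 0.11 (SE 0.10) for Mbd3. Of 8 tested GC-box binding zinc finger factors, whose sites resemble that of the Egr proteins, 0 passed the call and the median was -0.01, or -0.12 without WS replicate 3. The largest differences were -0.14 (SE 0.09) for Klf6 and -0.10 (SE 0.13) for Sp4.

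**Figure D5:**
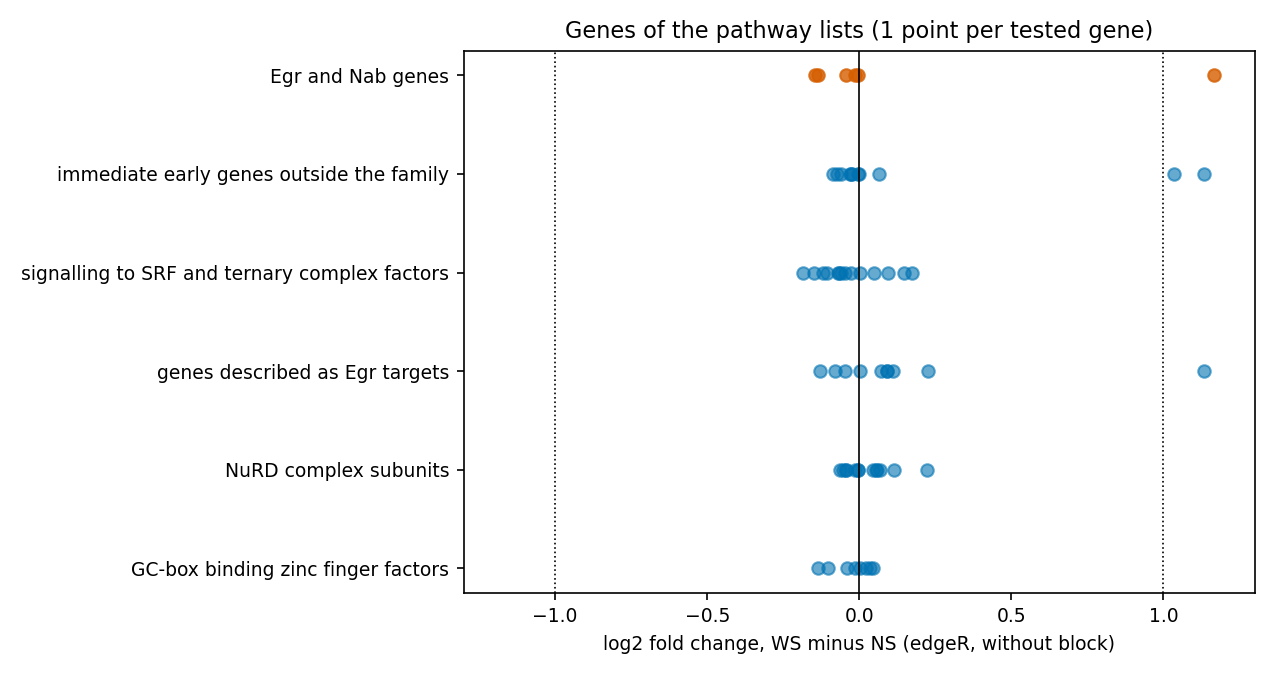
Log2 fold change (WS minus NS, edgeR without a block) of every tested gene of the Egr and Nab genes and of 5 pathway lists, with 1 point per gene and dotted lines at 1 in either direction. Egr4 (1.17), Arc (1.13, in 2 lists) and Fos (1.03) are past the line at 1, and all other points lie between -0.19 and 0.22.

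Depth was alike in the groups, with 15660395 to 17276168 counts per library over the listed genes. The tissue label was checked with marker genes. The 7 neuronal markers summed to 12044 to 12361 CPM in NS and 11733 to 12471 CPM in WS, and the 7 cortical layer markers to 491 to 521 and 517 to 531 CPM, with none at 0 counts. Among the layer markers, named after their values were seen, all WS libraries were above all NS libraries for Cux1 (log2 fold change 0.10) and Rorb (0.13). They were below them for Fezf2 (-0.18), and the groups overlapped for Cux2, Bcl11b, Tle4 and Foxp2. Of the neuronal markers, Syt1 (-0.08) had all WS libraries below all NS libraries. Over all tested genes 3.11% lay above and 3.16% below in this way. Of the layer markers, 0 of 7 had an unadjusted p under 0.05. Astrocyte markers summed to 4587 to 5100 CPM in NS and 4810 to 5935 CPM in WS, and microglial markers to 404 to 423 and 424 to 438 CPM. Striatal markers, of a region below the cortex, summed to 281 to 396 CPM in NS and 259.6 to 610 CPM in WS and were highest in WS replicate 2. The choroid plexus sum given above was also highest in WS replicate 2. Egr4 was not at either end in WS replicate 2, and the part of these regions in the values of the Egr genes was not tested.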

How the data were processed

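Total RNA of S1 cortex from 3 NS and 3 WS samples was sequenced on a DNBseq platform. RNA was accepted for sequencing above a low RIN limit, and no RIN per sample was used here. Reads of rRNA and of low quality were taken out by the authors before alignment with HISAT2, and the labels name mm10. The counting tool and its strand setting are not given in the sources used here.

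The authors deposited for each gene an estimated count (the mean over the 6 libraries, not scaled for depth), its SD as a signal in counts, and a z-score for each library. Each z-score was made by the authors as the distance from the mean in units of the SD, and their group means of it were not used. The authors' comparison columns, also deposited, hold a log2 fold change score, a p-value with its adjusted score, its −log10 and a rank score, and were not used. A second deposited table was not used. The WS replicate 3 column has an added letter in its name and was mapped to that sample since the deposited WS mean includes it.

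Estimated counts were computed as mean plus z-score times SD and rounded. For 13418 genes with an uncertainty under 0.1 count, 91.0% of values fell within 0.1 of a whole number, and the counts of the 6 genes were uncertain by at most 0.609. The design foresaw counts or FPKM values, and the count test was applied to these counts. The lowest chi-square per degree of freedom between libraries was 4.29, where sampling noise alone gives about 1, so no library was a copy.

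Differences were tested with edgeR 4.0.16 (TMM, filterByExpr, quasi-likelihood F test, Benjamini-Hochberg over 13747 genes), with calls made below an adjusted p of 0.05 and beyond a log2 fold change of 1. Limma 3.58.1, DESeq2 1.42.0, R 4.3.3, Python 3.11.15 and SciPy 1.17.1 were used. Replicate numbers come from the labels. The deviations of same-numbered libraries from their group means correlated at 0.339, 0.224 and 0.133 for numbers 1, 2 and 3 over the 13747 genes, and at 0.383, 0.358 and 0.069 over the 10876 genes averaging 100 counts or more. By the values over all tested genes, each above 0.1, the numbers were taken to pair the samples, which is weakest for number 3, and a fit with the replicate block, planned as an alternative, was made beside the main one without it.

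The 6 genes and all lists were chosen with earlier results of these data known. Named beside the 6 genes were the called genes and the 2 largest changes (mean of at least 10 counts) of each list, and the 3 genes most like each Egr gene. Other immediate early genes and Slc16a7's values were added where they bear on these. Exon length was the union of exons in GENCODE M21. Elk3 and Klf4 of the lists were not among the listed genes, and Wt1 did not pass the filter. Gene counts, log2 fold changes and list medians were recomputed under 3 further normalizations, 2 further filters, DESeq2, the block and the loss of each library, and the gene counts also under looser thresholds. Differences between 2 genes were recomputed under the normalizations and the loss of each library, and levels per kilobase with another gene length. Shares, ratios, library order and likeness have no alternative. Errors are given as the SD over libraries, which includes counting error.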

Additional observations from a re-analysis of the deposited data

How the results depend on the processing

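Egr4 was higher in WS under every normalization, filter, tool and left-out library, with a log2 fold change of 1.16 to 1.17 under the other normalizations, filters and DESeq2 and an edgeR or DESeq2 adjusted p of 0.0859 to 0.156 there. It was called with the replicate block (log2 fold change 1.19), and with 1 library left out its log2 fold change ran from 0.997 to 1.44. The block changed no call of the other 5 genes. With it Egr1 was at 0.017, against -0.00 without it. With 1 library left out the log2 fold changes ran from -0.18 to 0.16 for Egr1, -0.46 to 0.42 for Egr2, -0.24 to -0.06 for Egr3, -0.115 to 0.0623 for Nab1 and -0.121 to 0.0280 for Nab2, and none of these was called. The cause of these sign changes was not tested. The differences in response ran from 0.84 to 1.61 for Egr4 minus Egr1, 0.65 to 1.78 for Egr4 minus Egr2, 1.07 to 1.66 for Egr4 minus Egr3 and -0.15 to 0.11 for Nab2 minus Nab1. The median of the other immediate early genes ran from -0.31 to 0.34, that of the NuRD subunits from -0.0119 to 0.0350 and that of the GC-box factors from -0.12 to 0.02. The median of the SRF signalling list ran from -0.07 to -0.02 and that of the Egr targets from 0.02 to 0.12.

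The number of genes called higher was 4, or 0 to 6 with 1 library left out (0 without NS replicate 2 and 0 without NS replicate 3), and the number called lower was 0, or 0 to 1 (1 without WS replicate 3). At an unadjusted p under 0.05 they were 119 and 45. With the length of the longest transcript in place of the exon union, Nab2 was at 15.7 CPM per kilobase over all libraries, and the levels of the other 5 genes moved by less than their SD. Egr2, with 121 to 327 counts, has the least depth of the 6 genes.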
